A study of Rattus norvegicus with 8 samples.

Results

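The response of FRTL-5 cells with the wild type TSH receptor to iodide was read from 4 arrays, chosen by their labels and making up 4 of the 8 arrays of the series. FRTL-5 is a rat thyroid follicular cell line that needs thyrotropin (TSH) to grow, and the sub-clone SB5 was used here with stable expression of the human TSH receptor. Cells of 2 arrays had received 1 mM sodium iodide and cells of 2 arrays had received 1 mM sodium chloride, a salt control of equal osmolarity. The other 4 arrays came from cells that carried the receptor variant L629F, which is active without hormone, and were treated in the same 2 ways. All cells of both lines were cultured with 5 mU/ml bovine TSH. The labels give 1 line per receptor, no duration of treatment, no promoter for the receptor and no statement that replicates were separate cultures, so the p-values measure the spread between these samples, which may be technical. The series set out to find iodide-dependent changes of expression in a cell model of thyroid autonomy, in which wild type cells are the control line.

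Thyroid follicular cells take iodide up from the blood through the sodium iodide symporter, oxidise it and attach it to thyroglobulin to make thyroid hormone. Excess iodide is known to damp this system and to lower the symporter. TSH, acting mostly through cyclic AMP, drives both the growth and the specialised functions of these cells.

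The arrays carried 31042 probe sets other than controls, and the deposited MAS5 signals are linear intensities. After the dimmest 40% of probe sets were left out and the brightest remaining probe set was taken for each gene, 10046 genes were tested. Changes are given on the scale log2(signal + 35.3), which understates the change of dim genes. The trimmed mean signal was 500.2 on every array, and the median signals of the wild type arrays ran from 118 to 127. As a sign of RNA quality, the ratio of the 3′ to the 5′ GAPDH probe sets, which climbs as RNA degrades, was 1.22 and 1.55 with chloride and 1.40 and 3.13 with iodide. The same ratio for beta-actin was larger, 2.23 and 5.05 with chloride and 3.66 and 9.15 with iodide. For both genes the ranges overlapped. Of the wild type arrays, chloride replicate 1 had the lowest value and iodide replicate 2 the highest. The follicular markers Tg, Pax8, Nkx2-1 and Foxe1 had signals of at least 5506 on every wild type array. Of the markers of other cells, 6 of 8 for leucocytes, 5 of 7 for fibroblasts, 4 of 5 for endothelium and 3 of 6 for C cells were too dim to be tested. Their summed signals overlapped between the groups for leucocytes (337 and 344 with chloride, 331 and 453 with iodide), fibroblasts (390 and 335, then 429 and 348) and endothelium (378 and 328, then 231 and 466). For C cells the sums were 501 and 529 with chloride and 580 and 544 with iodide, so both iodide sums were higher, and their part in the results was not tested. The defining markers Ptprc, Dcn, Kdr and Chga were among those too dim to be tested.

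Most of the genes that passed the threshold with iodide in wild type cells were lower. The genes that fell include enzymes and regulators of fatty acid and sterol synthesis, basement membrane and other matrix proteins, and actin-binding proteins. The few that rose include the growth factor Areg and the DNA ligase Lig1. In a limma fit over all 8 arrays, 46 genes (0.458%) passed an adjusted p of 0.05, with 8 higher (0.0796%) and 38 lower (0.378%). Of these, 2 rose and 19 fell by at least 1 on the log2 scale, and the smallest change among the 46 was 0.646. Over all genes no such excess was seen, with 5342 changes above and 4704 below 0 and a median change of 0.02, and the median standard error was 0.202. Without adjustment, p was under 0.05 for 624 genes with a higher and 635 with a lower mean. For all 46 genes the 2 iodide arrays lay on one side of the 2 chloride arrays. These genes were picked on the same arrays, so their separation is a description and adds no evidence. The same holds wherever the groups of a gene past the threshold are called apart below. Over all genes both iodide arrays lay above both chloride arrays in 23.7% and below them in 19.5%.

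**Figure D1:**
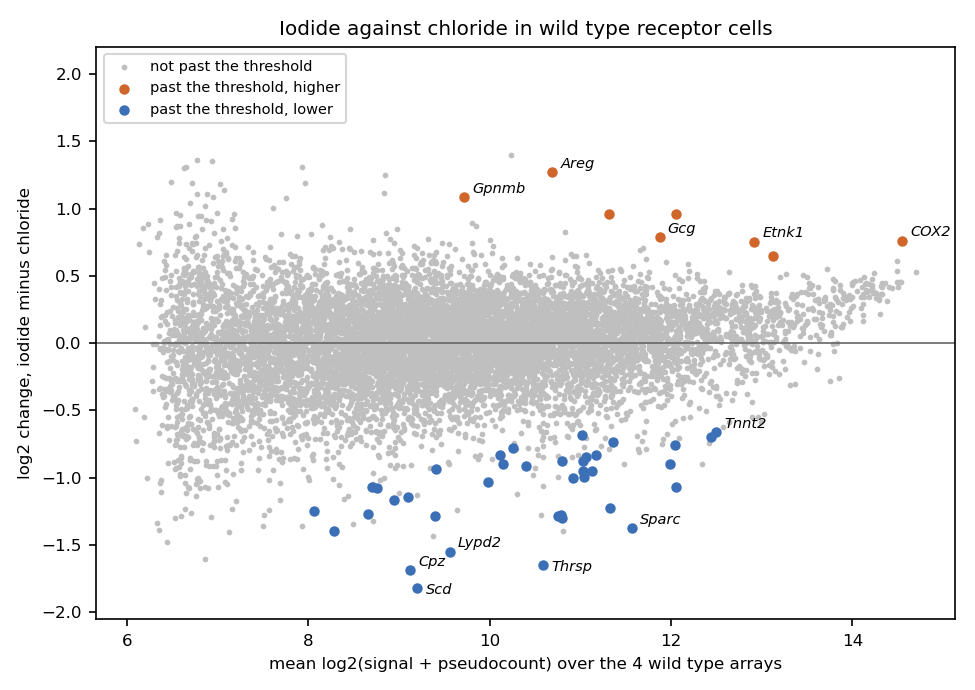
Log2 change with iodide (vertical axis) against the mean log2 signal of the 4 wild type arrays (horizontal axis) for 10046 genes, with the 8 genes that rose in orange, the 38 that fell in blue and the rest in grey. Most genes past the threshold lie below 0, Scd and Thrsp are among the lowest, and the cloud of grey points bends upward at the right end.

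The number of genes past the threshold rested on single arrays. No gene passed without chloride replicate 1 (841 had an unadjusted p under 0.05). Without chloride replicate 2 the 2 genes Scd and Thrsp passed, and without iodide replicate 2, 23 genes did. Without iodide replicate 1, 41 genes passed, and without a single L629F array 40 to 42 did. The changes of all 46 genes kept their sign in each of these fits. This outcome was fixed in advance, because the wild type groups of these genes do not overlap. The L629F arrays do not enter the wild type change, so 4 of the 8 fits left that change as it was. Those 4 fits altered only its standard error, and passing in them says little about the change itself. Of the 8 fits that left out 1 array, Scd and Thrsp passed in 7 and another 11 genes in 6. Fasn, Srebf1, Insig1, Krt7 and Slc20a1 passed in 1, and Tnnt2, Poglut3 and Yipf4 in 0. With each array shifted to a common median over all its probe sets, 8 genes were higher and 16 lower, all 24 of them among the 46. With the GAPDH ratio as a covariate 44 of the 46 passed.

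**Figure D2:**
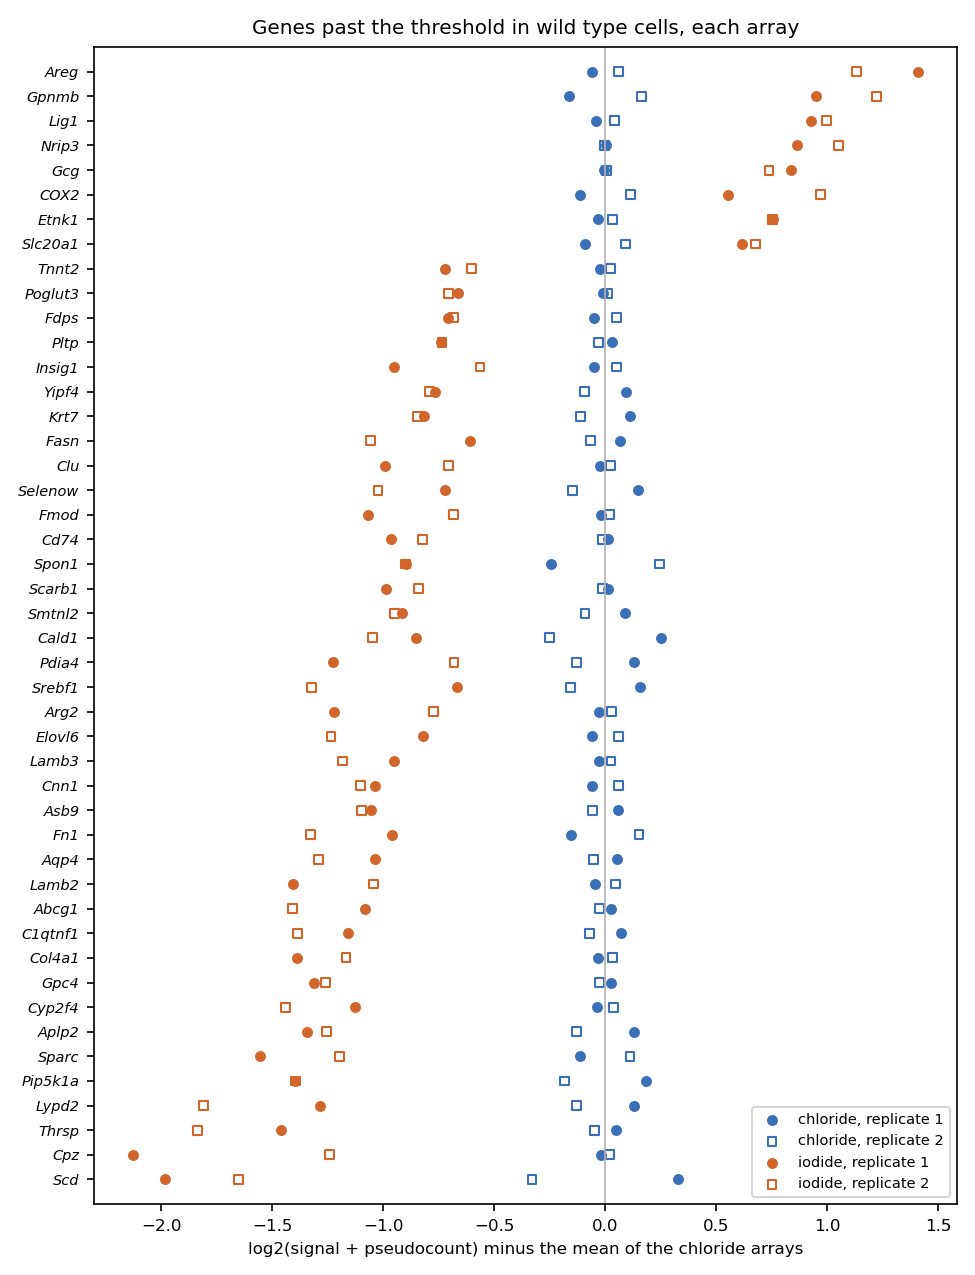
Each of the 46 genes past the threshold in wild type cells (rows), with the log2 signal on each of the 4 arrays relative to the mean of the 2 chloride arrays (horizontal axis). The orange iodide points of every gene lie wholly to the left or wholly to the right of its blue chloride points, and the chloride arrays of Scd lie farthest apart.

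Several genes of fatty acid synthesis fell. In this pathway citrate is split to acetyl-CoA, carboxylated, built into palmitate, and then elongated or desaturated. Its genes are switched on by the transcription factor Srebf1. The gene lists used here and below were chosen with earlier results of these data known, so their counts are descriptions only. Of 24 tested genes of the pathway 5 fell and none rose, against 0.378% and 0.0796% of all genes. The list had 19 lower and 5 higher means, and the median change was -0.34, against 0.02 over all genes. Both iodide arrays lay below both chloride arrays for 15 of the 24, against 19.5% of all genes. With each gene set relative to its mean log2 signal over the 4 arrays, the median over the members was 0.09 and 0.21 on the chloride arrays and -0.19 and -0.12 on the iodide arrays.

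Scd, which puts a double bond into saturated fatty acids, had signals of 1356 and 846 with chloride and 245 and 317 with iodide. Its log2 change was -1.82 ± 0.22 (SE; limma adjusted p = 0.00312), the largest fall of any tested gene past the threshold. Its chloride arrays lay far apart, but the lower of them was still above both iodide arrays. Thrsp, a nuclear protein that promotes lipogenesis, read 2793 and 2615 with chloride and 960 and 731 with iodide. The change was -1.65 ± 0.16 (adjusted p = 0.000636), and its other probe sets gave -1.76 (adjusted p = 0.00828) and -1.34 (adjusted p = 0.0108). All 3 probe sets of Thrsp thus fell.

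Elovl6, which lengthens palmitate, had signals of 1353 and 1471 with chloride and 784 and 579 with iodide, a change of -1.03 ± 0.19 (adjusted p = 0.0345). Srebf1 itself read 3282 and 2631, then 1836 and 1154, a change of -0.995 ± 0.193 (adjusted p = 0.0423). Fasn, the fatty acid synthase, went from 3202 and 2925 to 1993 and 1450, a change of -0.83 ± 0.16 (adjusted p = 0.0437). Srebf1 and Fasn each passed in 1 of the 8 fits that left out 1 array, with adjusted p up to 0.431 and 0.41. In each of the 3 the groups were apart, and their second probe sets changed in the same direction, by -1.37 for Elovl6, -0.60 for Srebf1 and -0.60 for Fasn, none of these with an adjusted p under 0.05. The enzymes before Fasn had lower means on both iodide arrays without passing the threshold. Acaca, acetyl-CoA carboxylase, changed by -0.61 ± 0.16 (adjusted p = 0.138), and Acly, the citrate lyase, by -0.44 ± 0.14 (adjusted p = 0.201). Acsl3 and Acsl4, which activate long-chain fatty acids, changed by -0.50 and -0.42, and the citrate carrier Slc25a1 by -0.42. Agpat2, which acylates lysophosphatidic acid, had a higher mean by 0.40 (adjusted p = 0.344).

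Genes of cholesterol synthesis and uptake had lower means almost throughout. The pathway leads from acetyl-CoA through mevalonate, farnesyl diphosphate and lanosterol to cholesterol, and is governed by sterol-sensing proteins of the endoplasmic reticulum. Of 24 tested genes 2 fell and none rose, against 0.378% and 0.0796% of all genes. A lower mean was found for 22, against 4704 of all 10046 genes, with a median change of -0.45. Both iodide arrays lay below both chloride arrays for 18 of them and above for none, against 19.5% and 23.7% of all genes. On that relative scale the members' median was 0.19 and 0.25 on the chloride arrays and -0.22 and -0.18 on the iodide arrays.

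Insig1, which holds the sterol-regulated transcription factors in the endoplasmic reticulum, had signals of 5281 and 5674 with chloride and 2816 and 3691 with iodide. Its log2 change was -0.76 ± 0.15 (adjusted p = 0.0437), and it passed in 1 of the 8 fits that left out 1 array (adjusted p up to 0.391). Fdps, which makes farnesyl diphosphate, read 6790 and 7303, then 4294 and 4368, and fell by 0.70 ± 0.12 (adjusted p = 0.0265). The groups of both genes were well apart, and the iodide arrays of Fdps nearly coincided. Below the threshold stood Msmo1, a sterol-C4-methyl oxidase (-0.58, adjusted p = 0.0689), and Acat2, the cytosolic acetoacetyl-CoA thiolase (-0.70, adjusted p = 0.0718). Lss, lanosterol synthase, changed by -0.70 (adjusted p = 0.165), Dhcr7, which makes cholesterol from its last precursor, by -0.57 (adjusted p = 0.166), and Mvk, mevalonate kinase, by -0.57 (adjusted p = 0.186). Nsdhl, a sterol dehydrogenase, changed by -0.48 (adjusted p = 0.242). All 6 had both iodide arrays below both chloride arrays.

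The promoters of Fdps and Insig1 are shown because both genes fell and because the CCAAT box, bound by the factor NF-Y, was frequent in this pathway. They are RefSeq sequences of the GRCr8 build, from 250 bases before to 50 after the start of the gene, printed in the direction of transcription, at chr2:176804767-176805066 (minus strand) for Fdps and chr4:8057720-8058019 (minus strand) for Insig1. Capitals mark CCAAT boxes on either strand and, in Insig1, the E-box CACGTG.
Fdps: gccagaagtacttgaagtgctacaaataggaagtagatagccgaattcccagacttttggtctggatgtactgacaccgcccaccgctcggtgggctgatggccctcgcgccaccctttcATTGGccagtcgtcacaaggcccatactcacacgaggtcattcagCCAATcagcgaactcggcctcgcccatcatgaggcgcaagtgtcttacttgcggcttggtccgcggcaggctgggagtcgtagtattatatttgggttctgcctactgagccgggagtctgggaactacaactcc
Insig1: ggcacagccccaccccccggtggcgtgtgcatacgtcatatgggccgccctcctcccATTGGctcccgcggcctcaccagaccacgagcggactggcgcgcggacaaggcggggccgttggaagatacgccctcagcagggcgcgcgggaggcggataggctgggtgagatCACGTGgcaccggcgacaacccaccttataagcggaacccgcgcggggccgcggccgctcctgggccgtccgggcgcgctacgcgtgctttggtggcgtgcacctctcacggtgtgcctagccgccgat
The CCAAT boxes begin 130 and 85 bases before the start in Fdps and 193 bases before it in Insig1, where the E-box begins 79 bases before the start. CCAAT, searched on both strands, was present in 16 of 20 promoters of the cholesterol genes with an entry (80%) and in 11 of 19 of fatty acid synthesis (57.9%), against 38.4% of the 8423 promoters of tested genes. Among the genes that fell it was in 16 of 24 promoters (66.7%). It was in 6 of 25 promoters of matrix genes (24%) and 3 of 9 of liver X receptor targets (33.3%). Both lists, described below, also had mostly lower means. It was in 23 of 40 promoters of DNA replication genes (57.5%), whose means were mostly higher. The box was also in 29 of 37 promoters of mitosis genes (78.4%), none of which passed the threshold. Its share thus did not follow the direction of change across these lists. The 9-letter pattern TCACNCCAC, a core of the sterol response element, was in 1.09% of tested promoters. It was in 0 of the 20 cholesterol and 0 of the 19 fatty acid promoters in this window. Other forms of the element were not searched, so these counts cannot show that the promoters lack one. These matches describe the letters of the window and were not tested as binding sites.

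Targets of the liver X receptors (LXR), nuclear receptors that sense oxysterols and switch on sterol export, had lower means throughout. All 10 tested members had a lower mean with iodide, against 4704 of all 10046 genes. Of the 10, 2 fell, against 0.378% of all genes, and the median change was -0.63. With no filter on dim probe sets it was -0.417. Both iodide arrays lay below both chloride arrays for 8 of the 10, against 19.5% of all genes. Abcg1, which exports cholesterol to lipoproteins, had signals of 384 and 369 with chloride and 159 and 120 with iodide, a change of -1.25 ± 0.22 (adjusted p = 0.0305). A second, dimmer Abcg1 probe set went the other way, from 85.2 and 6.61 to 138 and 144 (1.31 ± 0.45, adjusted p = 0.315), and with the probe sets averaged the change of Abcg1 was 0.03 (adjusted p = 0.984). Pltp, the phospholipid transfer protein, read 3434 and 3290, then 2000 and 2005, and fell by 0.74 ± 0.14 (adjusted p = 0.038). Its 4 arrays formed tight, separate pairs. Neither Abcg1 nor Pltp passed when each array was centred on its median over all probe sets. The same was true in a fit of the wild type arrays only and with no filter on dim probe sets. Abca1, another sterol exporter, read 2855 and 2541, then 1655 and 1628 (-0.70, adjusted p = 0.0556). Apoc2, the activator of lipoprotein lipase, read 236 and 281, then 100 and 78.0 (-1.24, adjusted p = 0.0655). Mylip, which marks the LDL receptor for degradation, changed by -0.84 (adjusted p = 0.107), Apoc1 by -0.55 (adjusted p = 0.166) and the acyltransferase Lpcat3 by -0.48 (adjusted p = 0.196). Nr1h2, which encodes the receptor LXR-beta, changed by -0.36 (adjusted p = 0.281).

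**Figure D3:**
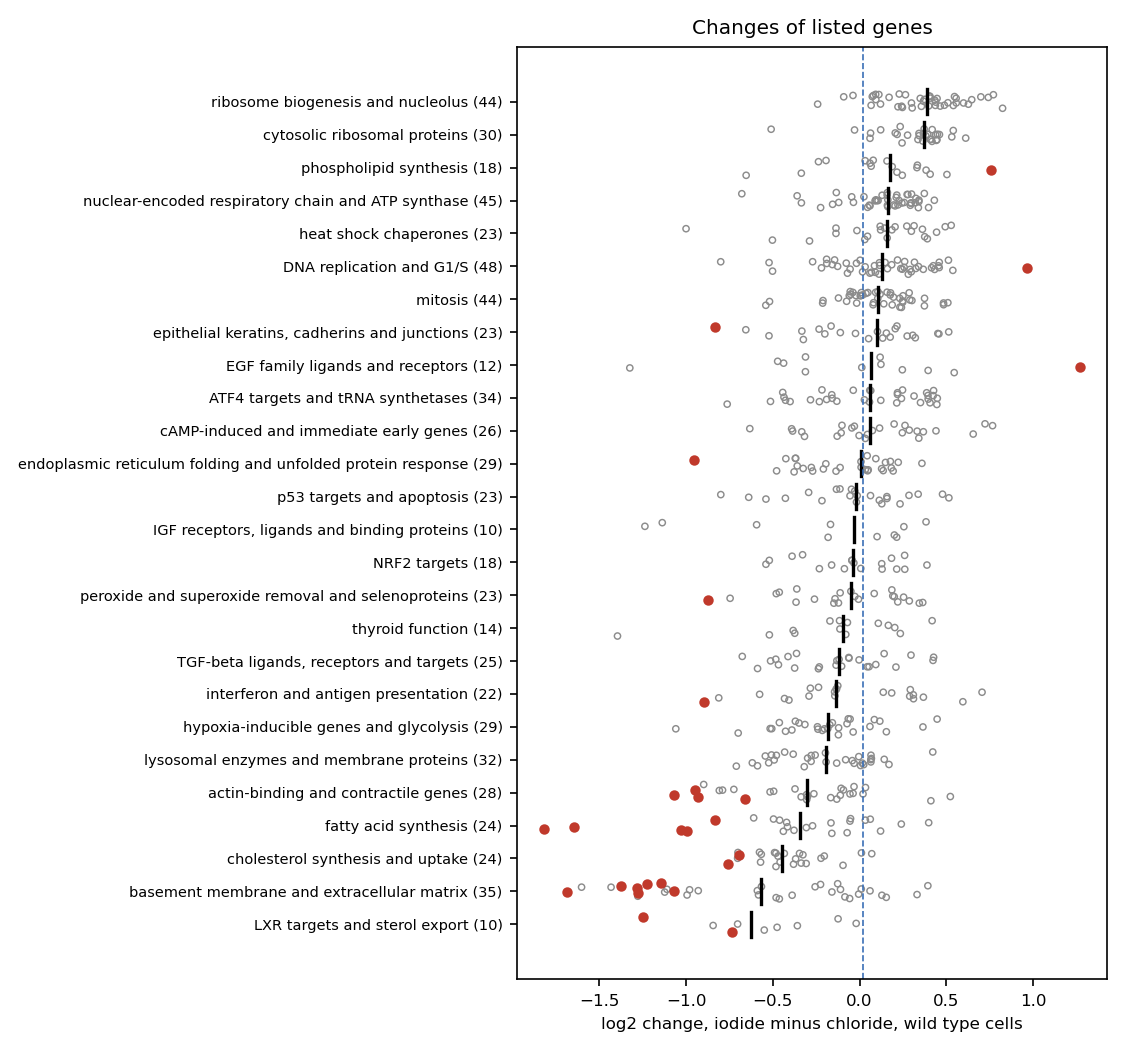
Log2 change with iodide in wild type cells (horizontal axis) of each tested member of 26 gene lists (rows, with the number of tested members), where filled red points passed the threshold, open points did not, black bars mark list medians and the dashed line is the median of all genes. The LXR, matrix and cholesterol lists have medians of -0.63, -0.57 and -0.45, and the lists of ribosome biogenesis and ribosomal proteins have medians of 0.39 and 0.37.

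Basement membrane and matrix genes formed the largest group of falls. Follicular cells rest on a basement membrane of laminin, type IV collagen and proteoglycans, which they help to make. Of 35 tested genes 7 fell and none rose, against 0.378% and 0.0796% of all genes. A lower mean was found for 29, against 4704 of all 10046 genes, and the median change was -0.57. With no filter on dim probe sets the median was -0.223. Both iodide arrays lay below both chloride arrays for 21 of the 35, against 19.5% of all genes. On that relative scale the members' median was 0.28 and 0.30 on the chloride arrays and -0.27 and -0.25 on the iodide arrays. In bulk samples like these, fewer cells of a kind and less RNA per cell cannot be told apart. The fibroblast markers Dcn, Lum, Thy1, Col1a2 and Col3a1 were too dim to be tested.

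Cpz, a carboxypeptidase that binds the matrix, had signals of 952 and 977 with chloride and 194 and 387 with iodide, a change of -1.69 ± 0.24 (adjusted p = 0.00708). Sparc, a collagen-binding matricellular protein, read 4487 and 5246, then 1629 and 2096, a change of -1.38 ± 0.19 (adjusted p = 0.00585). The chloride arrays of Cpz nearly coincided while its iodide arrays differed, and a second probe set of Sparc fell by 1.24 (adjusted p = 0.0331).

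Of the laminin chains, Lamb2 read 3771 and 4018 with chloride and 1447 and 1869 with iodide (-1.23 ± 0.17, adjusted p = 0.00585). Lamb3, a chain of the epithelial laminin, read 556 and 578, then 276 and 230 (-1.07 ± 0.20, adjusted p = 0.0345). Col4a1, a chain of type IV collagen, read 2666 and 2791, then 1019 and 1194 (-1.28 ± 0.24, adjusted p = 0.0367). All of these had close chloride arrays, and the second probe set of Col4a1 changed by -1.07 (adjusted p = 0.0554). Gpc4, a cell-surface heparan sulfate proteoglycan, read 1037 and 1000, then 389 and 405 (-1.29 ± 0.18, adjusted p = 0.00585). Fn1, fibronectin, read 699 and 871, then 384 and 289 (-1.14 ± 0.21, adjusted p = 0.0345). Both fell without overlap between the groups. Further members had lower signals on both iodide arrays but did not pass. Among them were the basement membrane genes Agrn (-0.93, adjusted p = 0.0806), Col18a1 (-1.12, adjusted p = 0.109) and Lama5 (-0.99, adjusted p = 0.125). Mgp, an inhibitor of calcification, changed by -1.11 (adjusted p = 0.0734), Spp1, osteopontin, by -0.98 (adjusted p = 0.119), and Col5a1, a fibrillar collagen chain, by -1.43 ± 0.37 (adjusted p = 0.134).

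Genes of the actin cytoskeleton fell as well, in a list added after Cnn1, Cald1, Tnnt2 and Smtnl2 had been seen among the falls, so that its count of 4 falls in 28 tested genes is a description only. Over all genes the share of falls was 0.378%. Of these 28 genes 24 had a lower mean, against 4704 of all 10046 genes. Both iodide arrays lay below both chloride arrays for 15, against 19.5% of all genes. The median change of the list was -0.30. On the relative scale used above it was 0.02 and 0.25 on the chloride arrays and -0.355 and -0.0179 on the iodide arrays, so iodide replicate 2 lay below chloride replicate 1 by little. The median change was -0.126 without iodide replicate 1, -0.484 without iodide replicate 2, -0.163 without chloride replicate 2 and -0.545 with the GAPDH ratio as a covariate. Cnn1, calponin, which binds actin and damps contraction, read 5869 and 6393 with chloride and 2969 and 2830 with iodide. The change was -1.07 ± 0.13 (adjusted p = 0.00312), with both pairs close. Cald1, caldesmon, changed by -0.95 ± 0.17 (adjusted p = 0.0309), and the smoothelin-like gene Smtnl2 by -0.93 ± 0.16 (adjusted p = 0.0265). Their second probe sets changed by -0.83 (adjusted p = 0.168) and -0.62 (adjusted p = 0.537). Tnnt2, a troponin T, changed by -0.66 ± 0.13 (adjusted p = 0.0372) from 7134 and 7386 to 4386 and 4774, and passed in none of the 8 fits that left out 1 array. The non-muscle myosins Myh9 (-0.90, adjusted p = 0.107) and Myh10 (-0.52, adjusted p = 0.161) and the crosslinker Flna (-0.81, adjusted p = 0.136) had lower means without passing. Actg1, cytoplasmic actin, had a higher mean by 0.52 (adjusted p = 0.136).

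Other genes fell outside these groups. Lypd2, which encodes a small membrane-anchored Ly6 family protein, read 1375 and 1146 with chloride and 494 and 333 with iodide (-1.55 ± 0.21, adjusted p = 0.0054). Cyp2f4, a cytochrome P450, read 2601 and 2740, then 1202 and 961 (-1.29 ± 0.14, adjusted p = 0.00251). Both had separate groups. Pip5k1a, a kinase that makes phosphatidylinositol bisphosphate, read 539 and 410, then 157 and 157 (-1.40 ± 0.22, adjusted p = 0.0154). Aplp2, a relative of the amyloid precursor protein, read 3029 and 2531, then 1068 and 1140 (-1.30 ± 0.16, adjusted p = 0.0036). Its other probe sets changed by 0.26 and -1.01, neither past the threshold, so the probe sets of Aplp2 did not share a direction. C1qtnf1, a secreted C1q-like protein, changed by -1.27 ± 0.20 (adjusted p = 0.015), with -1.16 (adjusted p = 0.044) on a second probe set. The water channel Aqp4 changed by -1.17 ± 0.19 (adjusted p = 0.0211). Its second probe set changed by -0.52 (adjusted p = 0.678), and Aqp4 did not pass with its probe sets averaged. Asb9, a substrate adaptor of a ubiquitin ligase, changed by -1.08 ± 0.19 (adjusted p = 0.0265), and the mitochondrial arginase Arg2 by -0.9985 ± 0.1628 (adjusted p = 0.0182).

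Single members of other lists fell, against 0.378% of all genes. Those named from lists here were Pdia4, Cd74, Selenow and Krt7. None of them passed when each array was centred on its median over all probe sets, or in a fit of the wild type arrays only. Pdia4, which forms disulfide bonds in new secretory proteins, changed by -0.95 (adjusted p = 0.0437), and was 1 of 29 tested genes of protein folding in the endoplasmic reticulum, whose median was 0.01. Calreticulin, Calr, changed by -0.48 (adjusted p = 0.153). Cd74, the invariant chain of class II antigen presentation, read 1530 and 1500, then 758 and 841, and changed by -0.89 ± 0.17 (adjusted p = 0.0372). It was 1 of 22 tested interferon and antigen presentation genes, whose median was -0.13. Selenow, a small selenoprotein, changed by -0.87 (adjusted p = 0.0372), in a list of 23 antioxidant genes and selenoproteins with a median of -0.05. Krt7, a simple epithelial keratin, changed by -0.83 (adjusted p = 0.0372; it passed in 1 of the 8 fits that left out 1 array), 1 of 23 epithelial genes with a median of 0.10. The remaining 6 genes that fell lay outside the naming rule and were chosen after their values were seen. They were Scarb1, the receptor for high-density lipoprotein (-0.92), Spon1 (-0.90), the collagen-binding proteoglycan Fmod (-0.88), the secreted chaperone clusterin, Clu (-0.85), Yipf4 (-0.78) and Poglut3 (-0.68), the last 2 of which passed in 0 of the 8 fits that left out 1 array.

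The largest rise past the threshold was that of Areg, amphiregulin, a ligand of the EGF receptor. It had signals of 987 and 1075 with chloride and 2794 and 2302 with iodide, a change of 1.27 ± 0.17 (adjusted p = 0.00474). The groups were far apart. Of the 12 tested EGF family genes Areg alone rose and none fell, against 0.0796% and 0.378% of all genes. Adam10, a protease that sheds cell-surface proteins, read 818 and 479, then 193 and 271 (-1.32 ± 0.27, adjusted p = 0.0507), and Tgfa, another ligand, changed by -0.47 (adjusted p = 0.332). The list's median was 0.07. The genes Ereg, Btc and Egfr were too dim to be tested.

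The Areg promoter (RefSeq, GRCr8, chr14:17265592-17265891, minus strand) is printed because it holds the full cyclic AMP response element, TGACGTCA. Capitals mark the element, which begins 91 bases before the start.
Areg: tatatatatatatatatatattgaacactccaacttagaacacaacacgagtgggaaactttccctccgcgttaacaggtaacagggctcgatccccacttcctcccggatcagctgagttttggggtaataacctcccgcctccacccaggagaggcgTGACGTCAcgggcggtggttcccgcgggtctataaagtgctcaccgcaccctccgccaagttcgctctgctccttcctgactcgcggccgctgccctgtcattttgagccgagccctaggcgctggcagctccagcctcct
The element was in 3.32% of the 8423 promoters of tested genes, and its part in the rise of Areg was not tested. All arrays had the same dose of TSH. Of 26 tested genes known to answer to cyclic AMP or as immediate early genes none passed the threshold, and their median was 0.06. The nuclear receptors Nr4a2 (0.77, adjusted p = 0.166) and Nr4a3 (0.72, adjusted p = 0.269) had higher means on both iodide arrays. Ppargc1a, a coactivator of mitochondrial genes, changed by -0.63 (adjusted p = 0.227) and Jun by -0.39 (adjusted p = 0.333).

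Lig1, the ligase that joins Okazaki fragments, read 1746 and 1855 with chloride and 3451 and 3631 with iodide. It rose by 0.96 ± 0.14 (adjusted p = 0.00614), with tight and separate pairs, and its second probe set changed by 0.50 (adjusted p = 0.359). Lig1 was the 1 gene past the threshold among 48 tested genes of DNA replication and the G1/S transition, against 0.458% of all genes. Of the 48, 34 had a higher and 14 a lower mean, against 5342 and 4704 of all genes, with a median of 0.13. Other members with higher signals on both iodide arrays were the helicase subunits Mcm7 (0.46, adjusted p = 0.15) and Mcm6 (0.54, adjusted p = 0.172) and the flap nuclease Fen1 (0.51, adjusted p = 0.194). The transcription factor E2f1 went the other way, from 1076 and 977 to 483 and 680 (-0.80 ± 0.20, adjusted p = 0.112). Of 44 mitosis genes none passed, 32 had a higher mean, and the median was 0.11. Among these the kinetochore protein Nuf2 changed by 0.48 (adjusted p = 0.173) and the survival and mitosis gene Birc5 by -0.54 (adjusted p = 0.235).

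The Lig1 promoter (RefSeq, GRCr8, chr1:83242920-83243219, plus strand) holds an E2F-type site, TTTNGCGC, here on the opposite strand and in capitals, beginning 19 bases after the start.
Lig1: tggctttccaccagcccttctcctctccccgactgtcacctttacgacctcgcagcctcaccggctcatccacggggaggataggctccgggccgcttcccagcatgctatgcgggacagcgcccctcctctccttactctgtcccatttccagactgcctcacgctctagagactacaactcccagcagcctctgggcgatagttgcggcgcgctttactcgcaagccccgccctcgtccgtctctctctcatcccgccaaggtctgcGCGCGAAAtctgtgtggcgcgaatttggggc
This motif was in 14 of 40 promoters of the replication list (35%), against 2.4% of promoters of tested genes, and was not tested as a binding site.

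Of the other rises, Gpnmb, a membrane glycoprotein of lysosomes and melanosomes, read 480 and 611 with chloride and 1080 and 1312 with iodide (1.09 ± 0.19, adjusted p = 0.0265). Nrip3 read 3028 and 3012, then 5526 and 6294 (0.96 ± 0.14, adjusted p = 0.00751). Gcg, the glucagon precursor gene, read 2809 and 2835, then 5071 and 4730 (0.79 ± 0.14, adjusted p = 0.0265). On the probe sets with signals given, the groups of Gpnmb, Nrip3 and Gcg were apart. The other probe sets of Nrip3 changed by 0.56 (adjusted p = 0.378) and 0.17 (adjusted p = 0.899). Nrip3 did not pass with its probe sets averaged. The other 5 tested members of the prohormone list held none past the threshold, and the processing enzyme Pcsk2 was too dim to be tested. Etnk1, which starts the ethanolamine branch of phospholipid synthesis, read 5801 and 6067, then 10040 and 10020 (0.75 ± 0.12, adjusted p = 0.0125). Its second probe set changed by 0.42 (adjusted p = 0.492), and Etnk1 did not pass with its probe sets averaged. Etnk1 was 1 of 18 tested genes of phospholipid synthesis, of which 14 had a higher mean, with a median of 0.17. Over all genes 0.0796% rose. Chpt1, a choline phosphotransferase, changed by 0.50 (adjusted p = 0.245) and Agpat1 by -0.65 (adjusted p = 0.318). Slc20a1, a sodium phosphate cotransporter, read 6667 and 7587, then 10920 and 11390 (0.65 ± 0.12, adjusted p = 0.0345), and passed in 1 of the 8 fits that left out 1 array. COX2, the mitochondrially encoded subunit 2 of cytochrome oxidase, read 16940 and 19870, then 26930 and 36020 (0.76 ± 0.15, adjusted p = 0.0437). With quantile normalization the change of COX2 was 0.30 (adjusted p = 0.1), and COX1, the other mitochondrial gene tested, changed by 0.45 (adjusted p = 0.173).

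Genes of ribosome biogenesis had higher means as a group although none passed the threshold. These genes make and process ribosomal RNA in the nucleolus. Of 44 tested members 41 had a higher mean, 23 of them with an unadjusted p under 0.05, and the median change was 0.39, against 0.02 over all genes. Both iodide arrays lay above both chloride arrays for 30 of the 44, against 23.7% of all genes. On that relative scale the members' median was -0.17 and -0.16 on the chloride arrays and 0.24 and 0.16 on the iodide arrays. Across the alternatives run, the median ran from 0.326 to 0.424. Ddx21, a nucleolar RNA helicase, read 1577 and 1125 with chloride and 2409 and 2363 with iodide (0.82 ± 0.17, adjusted p = 0.0551). Nop56, a core protein of the complexes that methylate ribosomal RNA, read 2362 and 3052, then 3959 and 4382 (0.63, adjusted p = 0.0989). Gnl3, nucleostemin, read 1387 and 1744, then 2344 and 2569 (0.65, adjusted p = 0.109), and Mybbp1a, a nucleolar regulator, 1894 and 1916, then 2838 and 2759 (0.55, adjusted p = 0.112). All 4 had both iodide arrays above both chloride arrays. Rcl1 changed by 0.77 (adjusted p = 0.121) and Nhp2 by 0.46 (adjusted p = 0.153).

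The promoters of Gnl3 (chr16:6219733-6220032, minus strand) and Mybbp1a (chr10:57555208-57555507, plus strand) are printed (RefSeq, GRCr8) as examples of a motif that was frequent in this list, the E-box CACGTG, in capitals. Factors of the Myc family bind it.
Gnl3: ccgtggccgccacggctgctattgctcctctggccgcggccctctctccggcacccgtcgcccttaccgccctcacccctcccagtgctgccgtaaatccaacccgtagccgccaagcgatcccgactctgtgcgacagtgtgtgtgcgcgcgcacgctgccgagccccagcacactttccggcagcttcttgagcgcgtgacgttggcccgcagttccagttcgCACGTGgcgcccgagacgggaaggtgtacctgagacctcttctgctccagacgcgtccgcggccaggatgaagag
Mybbp1a: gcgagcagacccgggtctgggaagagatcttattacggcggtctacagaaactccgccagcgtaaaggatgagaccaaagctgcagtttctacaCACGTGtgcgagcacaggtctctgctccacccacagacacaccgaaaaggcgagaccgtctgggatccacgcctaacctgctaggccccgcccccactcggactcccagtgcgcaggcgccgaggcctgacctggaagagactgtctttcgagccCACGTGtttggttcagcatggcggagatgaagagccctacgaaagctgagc
The E-box begins 25 bases before the start in Gnl3, and 156 bases and 1 base before it in Mybbp1a. It was in 17 of 40 promoters of the ribosome biogenesis list (42.5%), in 3 of 20 of cholesterol synthesis (15%) and in 0 of 25 of the matrix list, against 9.87% of the promoters of tested genes. These matches were not tested as binding sites.

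Cytosolic ribosomal protein genes had a median change of 0.37, with 28 of 30 means higher and none past the threshold. Rps23 read 16940 and 20390 with chloride and 24050 and 33570 with iodide (0.61, adjusted p = 0.135), and Rpl35 15470 and 15570, then 20010 and 22430 (0.45, adjusted p = 0.135). Of these 30 genes, 27 were among the 1005 brightest of all genes by mean signal, where the median change was 0.11 and 67.7% of changes were above 0, against 47.2% of the 1005 dimmest. With quantile normalization the ribosomal protein median was 0.00209, and that of the 45 tested nuclear-encoded respiratory chain genes, 0.16 before, was 0.03. The respiratory chain list held 36 higher means and none past the threshold, led by Atp5po (0.43, adjusted p = 0.163). The ribosome biogenesis median with quantile normalization was 0.365. Among 23 heat shock chaperones 17 had a higher mean, against 5342 of all 10046 genes, and none passed. Their median was 0.16, and Hspd1, the mitochondrial chaperonin, changed by 0.49 (adjusted p = 0.0997).

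Thyroid genes were followed whatever their p. Of 22 on the array 14 were tested, none passed the threshold, and 9 had a lower mean, with a median change of -0.10. Slc5a5, the sodium iodide symporter, read 2819 and 2928 with chloride and 825 and 1385 with iodide, a change of -1.40 ± 0.29 (adjusted p = 0.0631). Its groups were far apart, but the iodide arrays differed from each other. Tshr, read by a rat probe set whose response to the human transcript was not tested, was 433 and 616, then 355 and 345 (-0.52 ± 0.23, adjusted p = 0.376). Hhex, a homeobox regulator of follicular cells, was 10400 and 11330, then 13280 and 15870 (0.42 ± 0.12, adjusted p = 0.173). These were the genes of the list with an unadjusted p under 0.05.

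Tg, thyroglobulin, was 12340 and 13480 with chloride and 10750 and 13850 with iodide, a change of -0.08 ± 0.13 (adjusted p = 0.853), with overlapping groups. A second probe set of Tg went from 5751 and 6852 to 9481 and 12510 (0.79 ± 0.18, adjusted p = 0.13), so the probe sets of Tg did not share a direction. The transcription factors of the follicular cell changed by -0.17 (Pax8), -0.12 (Foxe1) and -0.07 (Nkx2-1), with adjusted p of 0.7, 0.752 and 0.91. The groups of Pax8 and Nkx2-1 overlapped on these probe sets. A second, dimmer probe set of Pax8 went from 2185 and 2956 to 1295 and 2059 (-0.63 ± 0.24, adjusted p = 0.364), with its groups apart. The peroxide-making oxidase Duox2 (-0.11), the deiodinase Dio1 (0.20), the chloride channel Ano1 (0.23) and the thyroglobulin receptor Lrp2 (0.17) had overlapping groups, as did the potassium channel subunit Kcne2 (0.11). Thra, a thyroid hormone receptor, changed by -0.38 (adjusted p = 0.586) and Asgr1, a receptor for glycoproteins, by -0.37 (adjusted p = 0.808). Slc26a4 (pendrin), Iyd, Duoxa1, Dio2, Thrb, Cftr, Slc16a10 and Kcnq1 were too dim to be tested.

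**Figure D4:**
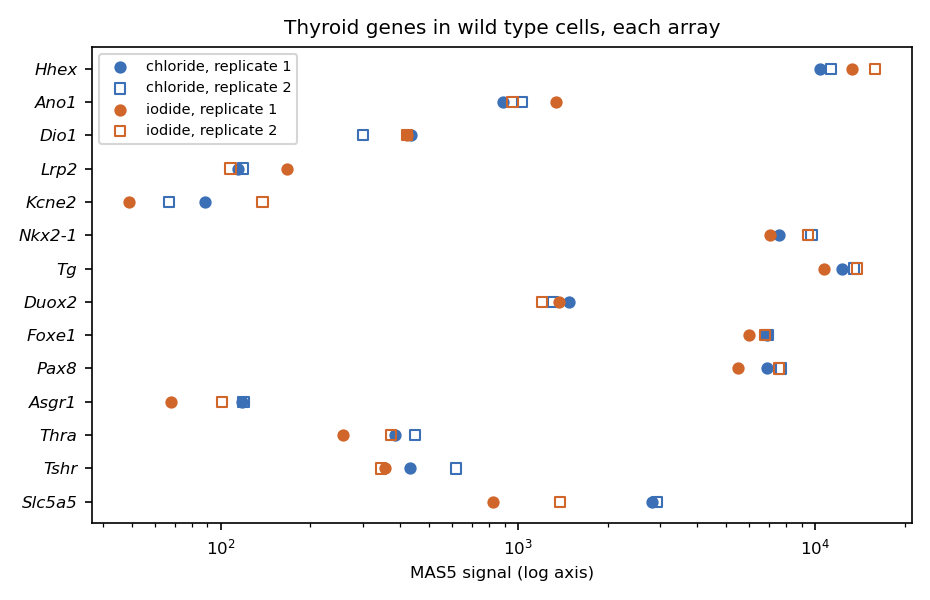
MAS5 signal (horizontal log axis) of the 14 tested thyroid genes on the 4 wild type arrays, ordered by the change with iodide. The iodide points of Slc5a5, at 825 and 1385, lie below its chloride points at 2819 and 2928, while those of Tg, Pax8 and Nkx2-1 overlap.

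The remaining lists held no gene past the threshold. Lysosomal genes had 22 of 32 means lower, with a median of -0.20, and the protease Ctsd changed by -0.62 (adjusted p = 0.127) while Ctsl changed by 0.42 (adjusted p = 0.172). Hypoxia-inducible and glycolytic genes had 23 of 29 means lower and a median of -0.18, with -0.51 (adjusted p = 0.112) for the oxygen sensor Egln3 and 0.45 (adjusted p = 0.136) for Pgk1. TGF-beta genes had a median of -0.12, with 17 of 25 means lower. Among 10 genes of IGF signalling 5 means were higher, but the binding protein Igfbp5 read 1264 and 1125, then 420 and 561 (-1.24 ± 0.25, adjusted p = 0.0537). Igfbp2 changed by -1.14 (adjusted p = 0.115). The medians were 0.06 for 34 targets of ATF4 and tRNA synthetases, -0.04 for 18 NRF2 targets and -0.02 for 23 p53 targets.

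Where genes past the threshold had further probe sets, these mostly changed in the same direction. Of 19 other kept probe sets of 16 such genes, 17 (89.5%) had the sign of the main one, against 53.9% of 3875 over all genes with several kept probe sets. The exceptions were the Abcg1 and Aplp2 probe sets given above. Of the 17, 4 passed the threshold in the fit over all kept probe sets. Of the genes past the threshold, 7 higher and 23 lower were among the 3349 brightest genes, 1 and 13 among the 3348 of middle brightness, and 0 and 2 among the 3349 dimmest, where the arrays of a group differed most.

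In L629F cells, measured on 4 other arrays, the same genes changed mostly in the same direction. Of the 46, 45 had the same sign (97.8%), against 60.6% of all genes. For 43 (93.5%) both L629F iodide arrays lay beyond both L629F chloride arrays in the direction seen in wild type cells, against 26.3% of all genes. The median change of the genes that fell was -1.01 in wild type and -0.65 in L629F cells, and of those that rose 0.87 and 0.63. The genes were chosen for their wild type values, so the larger size there is a description. Of the 46, 6 also passed in L629F cells, which is 13% of these genes and 66.7% of the 9 that passed there.

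No gene differed between the lines in its response at an adjusted p of 0.05 by limma (0%), and 420 had an unadjusted p under 0.05. The smallest adjusted p was 0.447, for Pip5k1a. Its signals in L629F cells were 359 and 296 with chloride and 441 and 486 with iodide, so that it changed by 0.47 there and by -1.40 in wild type cells. Aplp2 changed by -0.09 in L629F cells, with 1921 and 2324, then 1797 and 2175, and by -1.30 in wild type cells. Scd changed by -1.41 in L629F cells, Thrsp by -1.23, Lamb3 by -1.19 and Gcg by 1.19. Areg changed by 0.65 there, from 853 and 710 to 1302 and 1180. The groups of Scd, Thrsp, Lamb3, Gcg and Areg were apart in both lines.

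**Figure D5:**
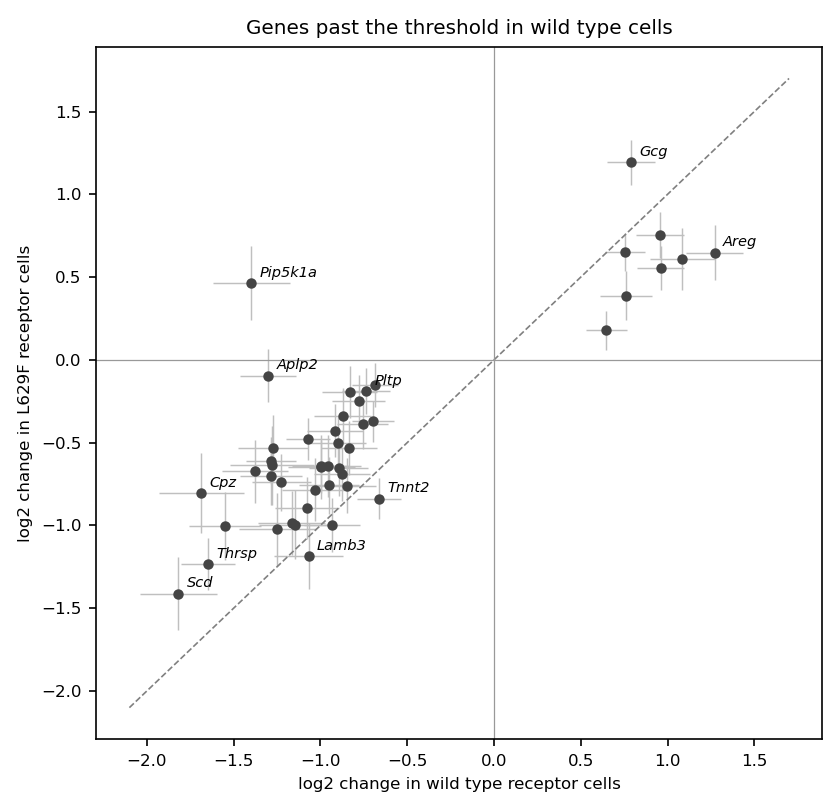
Log2 change with iodide of the 46 genes past the threshold in wild type cells (horizontal axis) against their change in L629F cells (vertical axis), with standard errors as bars and the line of equal change dashed. Of the 46 points 45 lie in the quadrants of equal sign, Pip5k1a lies apart at -1.40 and 0.47, and most of the others lie nearer 0 on the vertical than on the horizontal axis.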

How the data were processed

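Total RNA was hybridised as biotin-labelled cRNA to single-colour Affymetrix rat arrays, 1 per sample, per the labels' protocols. The deposited values are linear signal intensities from MAS5 (per the submitters' processing notes), whose version and scaling target the sources used here do not state. No scanner files were used. Gene symbols came from the platform annotation: 20832 of 31099 probe sets had 1 symbol, 436 several and 9831 none, and only the first were named. The 57 control probe sets and the dimmest 40% (mean signal under 65.4) were left out, and the brightest kept probe set stood for each gene. The scale was log2(signal + 35.3), with a pseudocount set at percentile 25 of the signals. Each gene was fitted with limma 3.58.1 (R 4.3.3; lmFit, eBayes with intensity trend) with 4 group means over 8 arrays (4 residual and 9.45 prior degrees of freedom), two-sided, with Benjamini-Hochberg adjustment at 0.05. With 2 arrays against 2, an exact permutation test cannot go below p = 0.333. The number of arrays limits the precision. Named genes were the 20 largest rises and falls past the threshold with separate groups, for the difference between the lines the 5 of smallest p, thyroid genes, and list members past the threshold plus up to 6 others by smallest p. The comparison, members and lists were chosen with earlier results of these data known. Promoters came from RefSeq (GRCr8) for 8423 tested genes, 29 of them past the threshold. Figures used matplotlib 3.10.9. Alternatives changed the pseudocount, filter, scaling, probe set choice, variance model, arrays, replicate term, GAPDH covariate and threshold.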

Additional observations from a re-analysis of the deposited data

Results flagged for a closer look

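Of the 5 genes of smallest p for the difference between the lines, 4 had every array of one line move against every array of the other. Movement against the wild type sign was not rare. Over all 10046 genes, 1240 had both L629F iodide arrays beyond both L629F chloride arrays in the direction opposite to the wild type change. Pip5k1a had a wild type change minus L629F change of -1.86 on the log2 scale (limma interaction, adjusted p = 0.447). The difference was 1.42 for Pin4, a peptidyl-prolyl isomerase, whose wild type signals were 636 and 606 with chloride and 1403 and 994 with iodide. It was 1.18 for Mtif2, a mitochondrial translation initiation factor, and -0.997 for Zswim8, a substrate receptor of a ubiquitin ligase. The adjusted p of these 3 was 0.994, so none of the 4 differences passed the correction.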

How the results depend on the processing

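Fits that left out arrays could not turn the sign of a gene whose groups do not overlap. The 46 genes past the threshold kept their sign under every alternative run, except that averaging the probe sets of a gene turned Abcg1 to 0.03115. Their number was 15 with no filter on dim probe sets, 24 when each array was centred by its median over all probe sets, 28 in a fit of the wild type arrays only, 195 with the GAPDH ratio as covariate, 86 at an adjusted p under 0.10 and 0 with no intensity trend (limma; 1064 with an unadjusted p under 0.05). With a replicate block it was 461, and 2 genes, Metrn (-1.20) and Aplp2 (-1.21), differed between the lines; the replicate numbers did not count as pairs, since the labels tie them to no shared batch and there are 2 pairs a line (correlation of deviations 0.228 and 0.181). Genes past the threshold in the lists were 10, 13, 16, 64, 0 and 151 with no filter, centring on all probe sets, wild type arrays only, the GAPDH covariate, no trend and the replicate block, 13 over all probe sets with no pseudocount or filter, and 18 over all kept probe sets. Leaving out 1 array gave 0 to 42 genes past the threshold, and 0 to 26 in the lists, against 29 with all arrays. With both arrays of highest GAPDH ratio left out, an alternative chosen after seeing the data, 41 genes passed, 20 of them among the 46. The remaining settings gave 36 to 57. Among list medians near 0, the range was -0.272 to -0.0136 for the thyroid genes and 0.0412 to 0.242 for DNA replication. The causes of these shifts were not tested. With 2 arrays a group and a median standard error of 0.202, no gene with a change under 0.646 passed.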

Other observations

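Of 18625 probe sets fitted one by one with limma, 44 passed (9 higher, 35 lower), and 7 of these had no gene symbol or several and are given by probe set. Probe set 1376822_at read 31.2 and 26.1 with chloride and 212 and 221 with iodide (1.98 ± 0.30 log2, SE, adjusted p = 0.0151). Probe set 1380529_at read 308 and 268, then 605 and 968 (1.31, adjusted p = 0.0382). Probe set 1381169_at read 142 and 158, then 7.26 and 16.4 (-1.98 ± 0.33, adjusted p = 0.0301). Their groups did not overlap, but they were picked on these same arrays. The chloride signals of 1376822_at and the iodide signals of 1381169_at lay below the filter level of 65.4 and the pseudocount of 35.3. Whether these 2 probe sets entered the fit thus depended on the other arrays, and the sizes of their changes rest on values near the floor.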
